A study of Mus musculus with 36 samples.

Results

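CD11c-positive microglia of APP mice were compared between hippocampus and cortex. The cells were chosen by the titles of their libraries, with no measured value used: 5 libraries of CD11c-positive hippocampal cells and 8 libraries of CD11c-positive cortical cells, 13 of the 36 libraries of the series. They held 949 of its 2657 cells (35.7%), 362 from hippocampus and 587 from cortex. All came from male APP/PS1 mice aged 6 months, which carry the transgenes APPswe and PSEN1dE9 and deposit amyloid plaques as they age. In this line both transgenes are driven by the promoter of the mouse prion protein gene, so they are expressed in several brain cell types and not in neurons alone. Brains were dissociated mechanically in the cold, and live nucleated cells (without DAPI, with DRAQ5) that were high in CD11b, intermediate in CD45 and positive for CD11c were sorted into plates for full-length cDNA libraries after the Smart-seq2 scheme. Libraries of 1 animal name were summed, which gave 3 hippocampal replicates, named APP1-2, APP2-3 and APP4, and 4 cortical replicates, named APP1, APP2, APP3 and APP4. The names APP1-2 and APP2-3 may mark pooled animals and may share animal 2, which the labels do not settle.

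Microglia are the resident macrophages of the brain, kept alive by signalling through the receptor Csf1r and held in their resting identity by TGF-beta. Around amyloid plaques a part of them takes on a state called disease-associated microglia (DAM), in which surveillance genes such as P2ry12, Tmem119 and Cx3cr1 are lowered and genes for lipid and lysosomal handling such as Apoe, Cst7, Lpl and Itgax are raised. Itgax encodes CD11c, an integrin subunit, so a CD11c gate enriches for this state. Microglia of different brain regions are known to differ in immune and metabolic genes, and amyloid builds up at a different pace in hippocampus and cortex.

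The hippocampal replicates held 147, 145 and 70 cells with 4451474, 3207673 and 1423625 counts, in the order APP1-2, APP2-3 and APP4. The cortical replicates held 154, 143, 147 and 143 cells with 4484427, 3404089, 3614329 and 3941745 counts, in the order APP1 to APP4. The median counts per cell were 20492 ± 4748 (SD, n = 3) in hippocampus and 20102 ± 1867 (n = 4) in cortex, and did not differ in a two-sided exact permutation test (p = 0.971). The median number of detected genes per cell was 1275 ± 193 in hippocampus and 1047 ± 121 in cortex (exact permutation p = 0.171), and 856 ± 160 and 783 ± 114 with every cell thinned to 5000 counts (p = 0.514). The smallest two-sided p that 3 against 4 replicates allow is 0.0571. Region cannot be told apart from the library set: a first number in the titles takes 2 values in the hippocampal libraries and 4 in the cortical ones, with 0 shared. The genotype tag reads wild type in all 5 hippocampal and in 2 of the 8 cortical libraries, against titles that say APP, and the titles were used.

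Both groups carried the markers of microglia. All 10 microglia markers were detected in both, and each had a fold change above 0 in hippocampus against cortex. A count of Apoe was found in 99.7% of hippocampal and 99.3% of cortical cells, and one of Cst7, a cysteine protease inhibitor typical of plaque microglia, in 77.9% and 66.6%. Of 7 neutrophil markers 0 passed the gene filter. In summed counts, fewer cells of a type and less RNA per cell cannot be told apart.

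Across 14892 tested genes, 33 were lower in hippocampal than in cortical CD11c-positive cells at an adjusted p under 0.05 in edgeR's quasi-likelihood test (0.222% of the genes), and 0 were higher (0.0%). At an unadjusted p under 0.05, 231 genes were higher (1.55%) and 1444 lower (9.7%). The replicates of the regions did not overlap for 557 genes with higher (3.74%) and 1479 genes with lower values in hippocampus (9.93%). The median log2 fold change over all tested genes was -0.15, and it ran from -0.44 to 0.22 over the 21 alternative settings. DESeq2 called 40 genes higher and 612 lower, limma voom 40 and 718, and an edgeR fit of only the 2 groups 28 higher (0.23% of 12156 genes) and 424 lower (3.49%). The 33 genes were called again in all 3 of these, apart from 1 in limma voom. With animal as a block, which leaves APP4 as the lone hippocampal replicate and assumes that it varies like the others, edgeR called 0 genes.

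Of the 33 genes that fell 1, Syt1, was on the marker lists of neurons, astrocytes and oligodendrocytes, and the others are described singly. Syt1 encodes the calcium sensor of synaptic vesicles and lies on chromosome 10 (GRCm38, 108497650 to 109010982, minus strand). It measured 72.1, 74.9, 157 and 191 CPM (counts scaled to a common library size by TMM) in the cortical replicates and 0 in all 3 hippocampal replicates. With 0 of 362 hippocampal cells carrying a count, which allows a share of up to 0.83%, Syt1 was at least 352-fold lower in hippocampus, taking the floor as 3 counts over the group. Its adjusted p was 0.00279 in edgeR, and it was called in 17 of 21 alternatives.

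Ank3, which encodes the ankyrin that builds the axon initial segment, measured 64.9, 120, 163 and 171 CPM in cortex and 0 in each hippocampal replicate, at least 364-fold lower. Celf4, an RNA-binding protein of excitatory neurons, measured 101 to 342 CPM in cortex and 0.655, 0 and 1.35 CPM in hippocampus. The vesicle genes Unc13c, Rab3c and Ppfia2, the channel genes Unc80 and Scn2a and the neurofilament gene Nefl also fell, each with at most 1 count in hippocampus.

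Sox9, the transcription factor that specifies astrocytes, measured 124, 118, 319 and 245 CPM in cortex and 0 in hippocampus, at least 573-fold lower (adjusted p = 0.0108 in edgeR). Ptn, which encodes the secreted growth factor pleiotrophin, measured 82.9, 83.1, 233 and 309 CPM in cortex and 0 in hippocampus, at least 501-fold lower (adjusted p = 0.00279). Ntrk2, the receptor for brain-derived neurotrophic factor, measured 66.9 to 169 CPM in cortex and 0 in hippocampus, at least 306-fold lower. Golga7b, a partner of palmitoyl transferases, had the greatest bound among the 33, at least 712-fold. APP3 or APP4 held the highest cortical value for each of these 4 genes, and no cortical replicate reached down to the hippocampal ones.

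Of the 33 genes, 19 had 0 counts in hippocampus, 6 had 1 to 3 counts and 8 had more. The lower bounds of the first 19 ran from 117-fold to 712-fold. The replicates did not overlap for any of the 33, and all 5 hippocampal libraries lay below all 8 cortical ones for each of those named here with values. For Sox9 this separation was slight, as the lowest cortical library held 0.454 CPM against 0 in hippocampus.

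**Figure D1:**
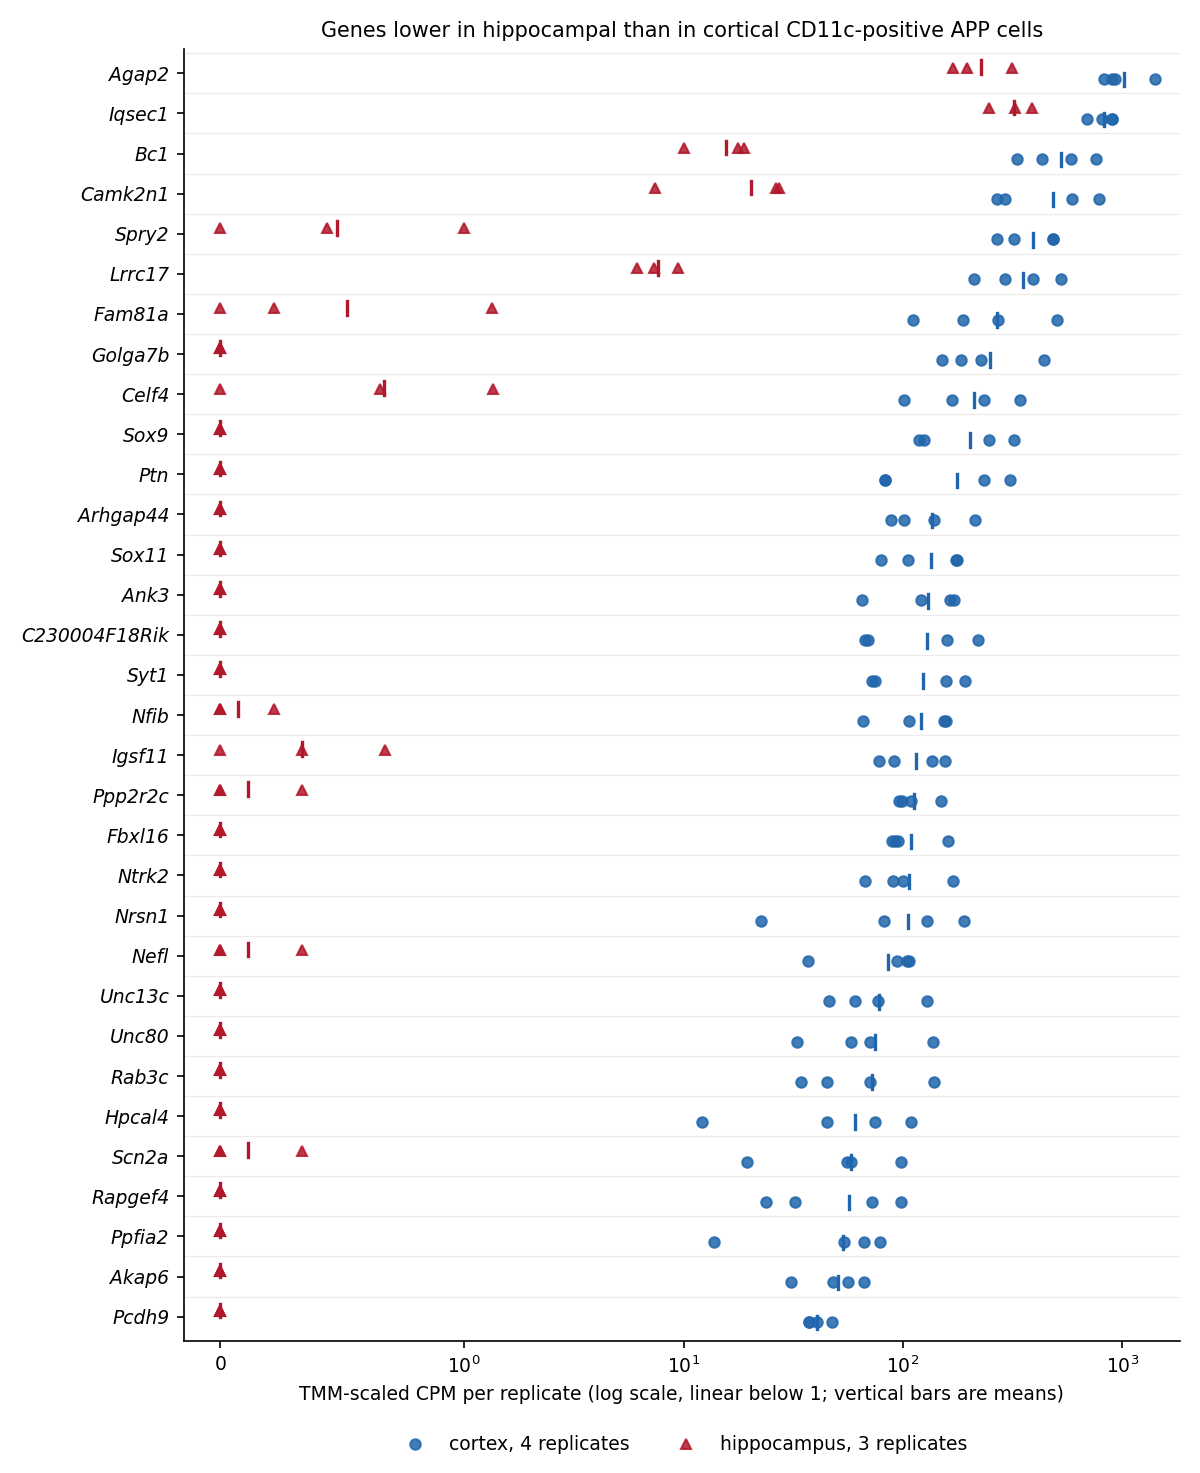
CPM (horizontal axis, log scale that is linear below 1) of 32 of the 33 genes lower in hippocampus, ordered by their cortical mean; blue circles are the 4 cortical and red triangles the 3 hippocampal replicates, and bars are group means. The 2 most abundant genes, Agap2 and Iqsec1, keep hippocampal values of 169 to 387 CPM, while 19 genes sit at 0 in all 3 hippocampal replicates.

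Most of the cortical counts of each of these genes lay in a minority of the cortical cells. Agap2 and Iqsec1 were nevertheless counted in 72.2% and 50.6% of all cortical cells. A cell was called rich in neural markers when more than 0.5% of its counts fell on the 39 marker genes of neurons, astrocytes and oligodendrocytes. Such cells made up 95 of 587 cortical cells (16.2%) and 2 of 362 hippocampal cells (0.552%). They were found in every cortical replicate: 16 of 154 in APP1, 22 of 143 in APP2, 26 of 147 in APP3 and 31 of 143 in APP4. The 2 hippocampal cells were both in APP2-3. Each of the 8 cortical libraries had 6 to 18 of these cells and each of the 5 hippocampal libraries 0 or 1, so the groups did not overlap.

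Each of the 33 genes had more than 50% of its cortical counts in the 95 cells, from 56.8% for Iqsec1 to 99.8% for Pcdh9, with a median of 89.0%. Among genes that were not called this share varied, such as 80.5% for Hmgcs1, 65.2% for App and 19.8% for Apoe. How many of all tested genes pass 50% was not counted. Syt1 is itself one of the 39 markers by which these cells were chosen. The 95 cells held 29.9% of all cortical counts. They carried a median of 32667 counts and 1595 genes, against 18719 counts and 987 genes in the other 492 cortical cells. They also carried microglia markers, with a median of 7 of the 10 detected per cell, against 7 in other cortical and 9 in hippocampal cells. Csf1r, which is on that list, was found in 73.7% of the 95. Apoe and Cst7, which are not on it, were found in all 95 and in 69.5%. The median share of counts on microglia markers was 0.497% in the 95 cells, against 0.904% in the other cortical cells and 1.10% in hippocampal cells. Doublets were not called, and the part of whole or fragmentary neural cells, free RNA or RNA made by the microglia in these counts was not tested.

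**Figure D2:**
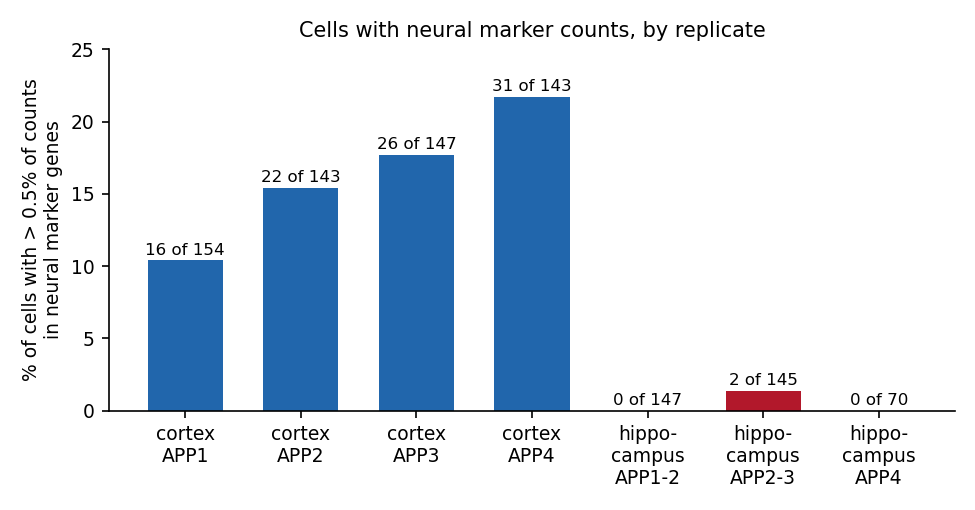
Share of cells (vertical axis, percent) with more than 0.5% of their counts on neuron, astrocyte and oligodendrocyte markers, for each of the 4 cortical (blue) and 3 hippocampal (red) replicates; labels give the cells behind each bar. Cortical replicates reach 10.4% to 21.7%, and 2 of 3 hippocampal replicates are at 0.

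The marker lists by which these cells were chosen moved with the same division. Neuron markers took 0.0943 ± 0.0202% of counts in cortex (SD, n = 4) and 0.0169 ± 0.0090% in hippocampus (n = 3), astrocyte markers 0.108 ± 0.036% and 0.0196 ± 0.0017%, and oligodendrocyte markers 0.0336 ± 0.0047% and 0.00648 ± 0.00313%. The replicates did not overlap for any of the 3, and each test stood at the smallest possible exact permutation p of 0.0571 (0.133 after Benjamini-Hochberg adjustment over 7 quality measures). By gene, 12 of 15 neuron and 10 of 12 astrocyte markers were lower at an unadjusted p under 0.05 in edgeR. So were 7 of 10 tested oligodendrocyte markers, against 9.7% of all tested genes. Among these markers Syt1 alone passed adjustment. The list medians were -7.68, -6.92 and -6.33 on the log2 scale. These are fitted values, and with the 7, 3 and 5 tested members that had 0 counts in hippocampus set to their bounds the medians were -5.41, -5.72 and -3.98.

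Without the cells rich in neural markers, edgeR called 0 of 12845 genes between the regions, and the fit of only the 2 groups also called 0. At an unadjusted p under 0.05 there were then 627 genes, of which 247 were higher and 378 lower among those also tested with all cells. The median over all genes moved to -0.0047. The fold changes of Camk2n1 (-2.46 ± 0.65), Agap2 (-1.48 ± 0.37) and Iqsec1 (-0.70 ± 0.25) kept their sign in that fit and missed the threshold, each with an adjusted p of 1. Genes at 0 counts in hippocampus were still found in some of the other cortical cells: Ptn in 7.32%, Golga7b in 5.49%, Ank3 in 3.25% and Syt1 in 2.24% of 492 cells, against 0 of 362 hippocampal cells. The fitted fold changes of these genes stayed far below 0 in that fit (-9.22, -9.49, -8.10 and -7.48), with adjusted p of 1 in edgeR, and are no bounds because hippocampus is at 0.

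The remaining called genes were also expressed in hippocampus. Iqsec1 encodes an exchange factor for ARF GTPases that acts in endocytosis and integrin recycling, and lies on chromosome 6 (90656088 to 90988685, minus strand). It measured 693, 804, 901 and 895 CPM in cortex and 246, 324 and 387 CPM in hippocampus, 2.58-fold lower (log2 -1.37 ± 0.23, adjusted p = 0.00782 in edgeR). A count was present in 50.6% of cortical and 31.2% of hippocampal cells. Among cortical cells without many neural marker counts the share was 43.5%. Agap2, an ARF GTPase-activating protein, measured 825, 892, 925 and 1404 CPM in cortex and 196, 313 and 169 CPM in hippocampus, 4.48-fold lower (log2 -2.16 ± 0.43, adjusted p = 0.0236). It was counted in 72.2% of cortical and 44.2% of hippocampal cells. For both genes every hippocampal replicate lay well below the lowest cortical one.

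Camk2n1 also fell while keeping counts in hippocampus. It encodes an inhibitor of calcium/calmodulin-dependent kinase II (chromosome 4, 138454314 to 138460123, plus strand). Its values were 291, 268, 587 and 783 CPM in cortex and 7.43, 27.3 and 26.4 CPM in hippocampus, a log2 fold change of -4.57 ± 0.70 (adjusted p = 0.00279 in edgeR). Counts were found in 178 of 587 cortical cells (30.3%) and 12 of 362 hippocampal cells (3.31%). Outside the cells rich in neural markers 21.1% of cortical cells still had a count.

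Lrrc17 and Bc1 were present in hippocampus at low levels. Lrrc17, a secreted leucine-rich repeat protein, measured 291, 211, 390 and 523 CPM in cortex and 6.12, 7.33 and 9.46 CPM in hippocampus (log2 -5.54 ± 1.04, adjusted p = 0.0136 in edgeR). Bc1, a short untranslated RNA carried into dendrites, measured 429, 330, 582 and 760 CPM in cortex and 10.05, 17.7 and 18.9 CPM in hippocampus (-5.08 ± 1.04, adjusted p = 0.0306). Spry2, an inhibitor of receptor tyrosine kinase signalling, measured 269 to 484 CPM in cortex and 0.437, 0.9996 and 0 CPM in hippocampus. Fam81a measured 111 to 505 CPM in cortex and 0.218, 1.33 and 0 CPM in hippocampus. Bc1 is related to repeat sequences found across the genome, and its counts are uncertain where reads could be assigned to another copy.

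Homeostatic genes had higher values in hippocampal CD11c-positive cells, without a call in the fit of all 6 groups. Of 25 homeostatic genes 23 had a fold change above 0, against 6458 of 14892 tested genes. At an unadjusted p under 0.05 in edgeR 13 were higher and 0 lower, against 1.55% and 9.7% over all genes. For 13 the hippocampal replicates lay above all cortical ones, against 3.74% over all genes. The list's median log2 fold change was 0.70, against -0.15 over all genes. It fell to 0.33 without the cells rich in neural markers, with 4 genes at an unadjusted p under 0.05, and was 0.36 with each cell thinned to 5000 counts. Summed over the list, the level was 19764 to 22101 CPM in the hippocampal and 14547 to 16050 in the cortical replicates. Summed levels of lists are CPM scaled to raw totals throughout.

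The 4 receptor genes with the smallest p of the list were Cx3cr1, P2ry12, Csf1r and Tgfbr1. Csf1r, the receptor for the survival factors CSF1 and IL-34, measured 858, 844, 914 and 908 CPM in cortex and 1510, 1585 and 1410 CPM in hippocampus (log2 0.77 ± 0.20, adjusted p = 0.110 in edgeR). All 5 hippocampal libraries were above all 8 cortical ones, as they were for P2ry12 and Tgfbr1, while for Cx3cr1 this held for 4 of the 5. Cx3cr1, the receptor for the neuronal chemokine fractalkine (chromosome 9, 119901616 to 120069879, minus strand), measured 413, 641, 548 and 508 CPM in cortex and 1017, 794 and 989 CPM in hippocampus. Its log2 fold change was 0.82 ± 0.18, which is 1.77-fold with a 95% interval of 0.44 to 1.21 on the log2 scale, and its adjusted p was 0.0553.

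P2ry12, the ADP receptor that guides microglial processes, measured 653, 768, 831 and 691 CPM in cortex and 1199, 1030 and 1362 CPM in hippocampus (log2 0.70 ± 0.17, adjusted p = 0.0785 in edgeR). Tgfbr1, a receptor chain for TGF-beta, measured 409, 388, 399 and 352 CPM in cortex and 686, 596 and 651 CPM in hippocampus (0.73 ± 0.22, adjusted p = 0.220). In the edgeR fit of only the 2 groups these 4 receptor genes passed, with adjusted p of 0.0104 for Csf1r, 0.0387 for P2ry12, 0.0320 for Tgfbr1 and 0.0429 for Cx3cr1. They were the only homeostatic genes among the 28 that rose in that fit. Without the cells rich in neural markers their fold changes were 0.48, 0.42, 0.34 and 0.50 in the same order, and none passed.

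Among the homeostatic genes with fold changes below the list's median were Tmem119 and Selplg. Tmem119, a membrane protein used to tell microglia from other macrophages, measured 400 to 439 CPM in cortex and 516 to 559 CPM in hippocampus (log2 0.35 ± 0.15, adjusted p = 0.387 in edgeR). Selplg, a ligand for selectins, measured 1109 to 1302 CPM in cortex and 1432 to 1557 CPM in hippocampus (0.32 ± 0.11, adjusted p = 0.309). Neither gene passed, and neither was called in any of the 21 alternatives. Tmem119 was chosen after its values were seen, as were Agap2, Iqsec1, Bc1, Lrrc17, Spry2, Fam81a and Celf4.

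The share of cells with a count followed the levels. Cx3cr1 was found in 80.7% of hippocampal and 57.9% of cortical cells, P2ry12 in 89.5% and 65.6%, and Csf1r in 91.7% and 75.1%. With every cell thinned to 5000 counts the shares were 68.0% and 47.6% for Cx3cr1, 75.1% and 57.3% for P2ry12, and 83.0% and 65.8% for Csf1r. In the other cortical cells, without those rich in neural markers, the thinned shares were 48.8%, 58.1% and 66.7%. The cortical share was thus also below the hippocampal one among the cortical cells that held few neural counts.

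**Figure D3:**
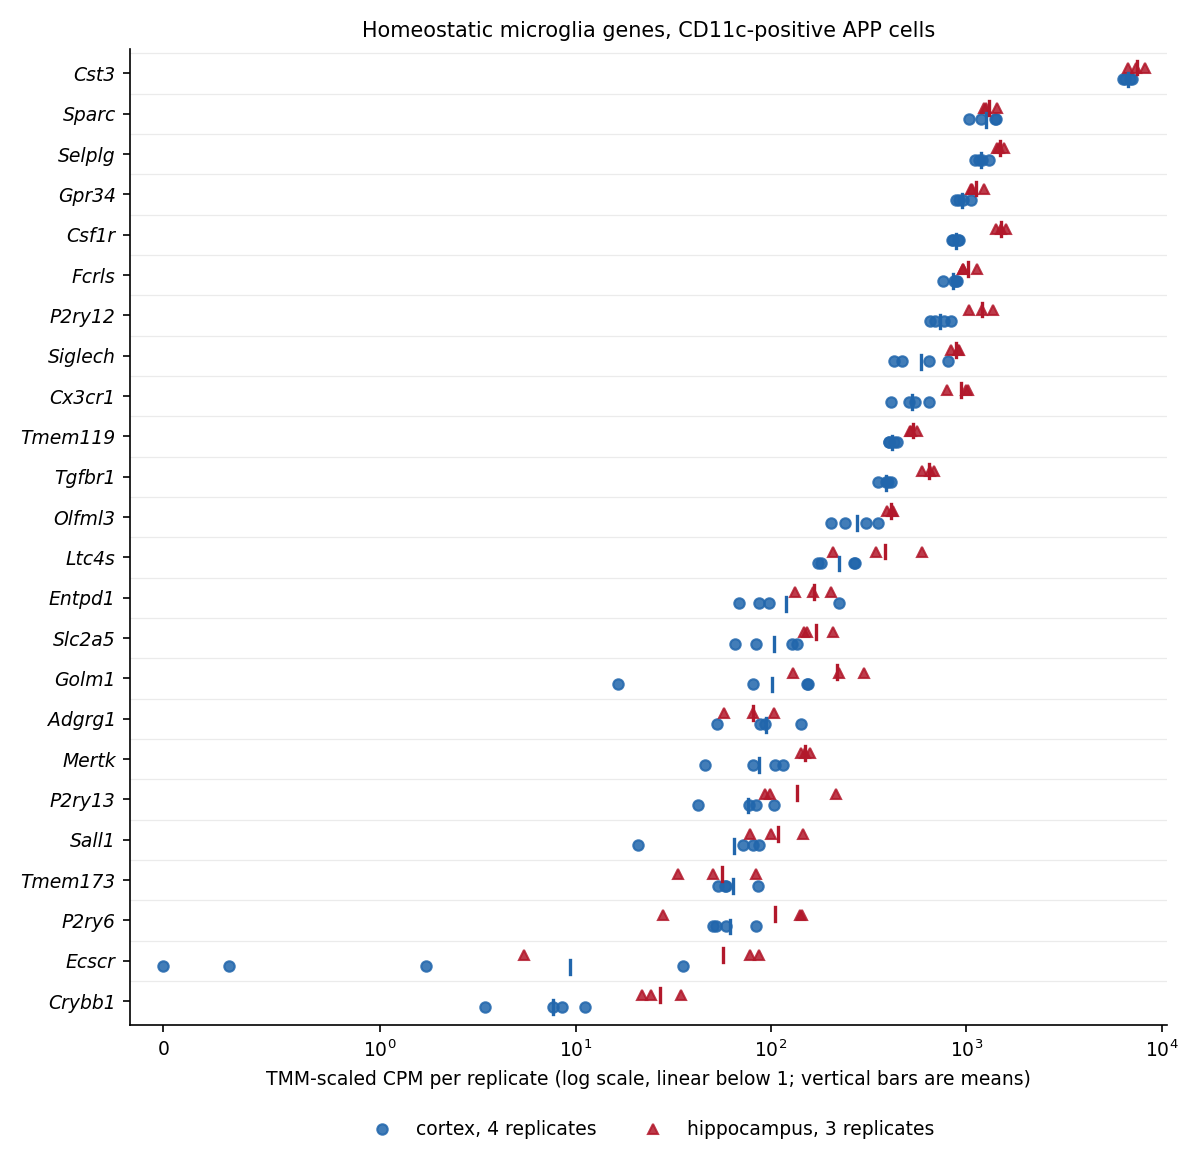
CPM (horizontal axis, log scale that is linear below 1) of 24 of the 25 homeostatic microglia genes, ordered by cortical mean; blue circles are the 4 cortical and red triangles the 3 hippocampal replicates, and bars are group means. The hippocampal replicates lie above all cortical ones for Csf1r, P2ry12, Cx3cr1 and Tgfbr1, among others.

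The genes with the smallest p among those with higher values in hippocampus included several outside the homeostatic list. Zfp652, a zinc finger protein, measured 197, 288, 231 and 251 CPM in cortex and 499, 662 and 354 CPM in hippocampus (log2 1.06 ± 0.27, adjusted p = 0.107 in edgeR). Wnk1, a kinase that controls ion transport and cell volume, measured 285, 191, 321 and 302 CPM in cortex and 499, 638 and 539 CPM in hippocampus (1.02 ± 0.27, adjusted p = 0.130). Both passed in the edgeR fit of only the 2 groups (adjusted p = 0.0455 and 0.0306). Unlike the homeostatic receptors, Wnk1 had a larger fold change, 1.20, without the cells rich in neural markers. Zfp652 was found in 52.2% of hippocampal and 25.04% of cortical cells, and Wnk1 in 56.4% and 29.8%.

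Cmtm7, a membrane protein of the chemokine-like MARVEL family, was low in cortex, at 15.2, 18.6, 14.9 and 14.1 CPM, and measured 77.3, 56.0 and 58.8 CPM in hippocampus (log2 2.03 ± 0.54, adjusted p = 0.142 in edgeR). Ptpn1, a tyrosine phosphatase of insulin and cytokine receptors, measured 54.2 to 156 CPM in cortex and 169 to 315 CPM in hippocampus (1.23 ± 0.32, adjusted p = 0.130). Serinc3, a membrane protein linked to serine incorporation into lipids, measured 346 to 576 and 683 to 798 CPM (0.71 ± 0.20, adjusted p = 0.164). Zfhx3, a large homeobox transcription factor, measured 275 to 492 and 586 to 656 CPM (0.69 ± 0.21, adjusted p = 0.220). Only Cx3cr1 and Zfp652 were called higher in all of DESeq2, limma voom, the fit of the 2 groups and the fit to numbers of cells with a count.

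The values of Apoe, Cst7, Trem2 and Lpl overlapped between the regions, while those of 4 DAM core genes, Itgax, Fabp5, Lgals3 and Ccl4, did not. These were 2 lower and 2 higher of 19 tested, against 9.93% lower and 3.74% higher over all genes, so the lower count was near that share. Apoe, the lipid carrier apolipoprotein E, measured 5006, 5100, 4141 and 4416 CPM in cortex and 4360, 4977 and 4189 CPM in hippocampus (log2 -0.05, 95% interval -1.15 to 1.06). In the fit of only the 2 groups, which does not share its spread with CD11c-negative and wild-type cells, the value was -0.04 ± 0.13. Cst7 measured 979, 1094, 1075 and 967 CPM in cortex and 984, 1005 and 895 CPM in hippocampus (-0.10, interval -2.83 to 2.63, and -0.08 ± 0.13 in the fit of the 2 groups). Trem2, the lipid receptor required for the full DAM state, measured 1448 to 1818 CPM in cortex and 1716 to 2064 CPM in hippocampus (0.19, interval -0.20 to 0.58). None of the 3 genes passed.

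By list, 0 of 19 DAM core genes and 0 of 22 DAM broad genes reached an unadjusted p under 0.05 in either direction in edgeR. The medians were -0.02 and 0.08 with all cells, against -0.15 over all genes, and -0.29 and -0.20 without the cells rich in neural markers. Lpl, the lipoprotein lipase, measured 518 to 773 CPM in cortex and 610 to 1113 CPM in hippocampus (log2 0.37, interval -1.95 to 2.69). The cathepsin genes Ctsd and Ctsb, which encode lysosomal proteases, stood at 4530 to 5431 and 3944 to 4787 CPM in cortex and at 4543 to 5553 and 3965 to 4417 CPM in hippocampus. One of the 20 DAM core genes, Gpnmb, did not pass the gene filter.

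A few low DAM genes separated the replicates without passing. Lgals3, the lectin galectin-3, measured 4.90, 28.4, 28.3 and 24.3 CPM in cortex and 166, 58.0 and 83.2 CPM in hippocampus (log2 2.25 ± 1.77, adjusted p = 0.905 in edgeR). It was counted in 36 of 362 hippocampal cells (9.94%) and 14 of 587 cortical cells (2.39%). Fabp5, a fatty acid binding protein, measured 61.9 to 148 CPM in cortex and 28.4 to 45.0 CPM in hippocampus (-1.60 ± 1.79, adjusted p = 1). Ccl4, a chemokine, measured 24.98, 171, 244 and 205 CPM in cortex and 266, 253 and 266 CPM in hippocampus.

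Itgax, the gene behind the gate (chromosome 7, 128129547 to 128150657, plus strand), measured 194, 84.96, 188 and 169 CPM in cortex and 83.9, 80.0 and 64.2 CPM in hippocampus (log2 -1.06 ± 1.58, adjusted p = 1 in edgeR). Cortical APP2 lay next to the hippocampal values and the other cortical replicates stood apart. A count was found in 47 of 362 hippocampal cells (12.98%) and 101 of 587 cortical cells (17.2%), although all were sorted for the protein. The fit of only the 2 groups gave -1.05 ± 0.34 with an adjusted p of 0.150. Protein on the surface was not measured in these files.

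**Figure D4:**
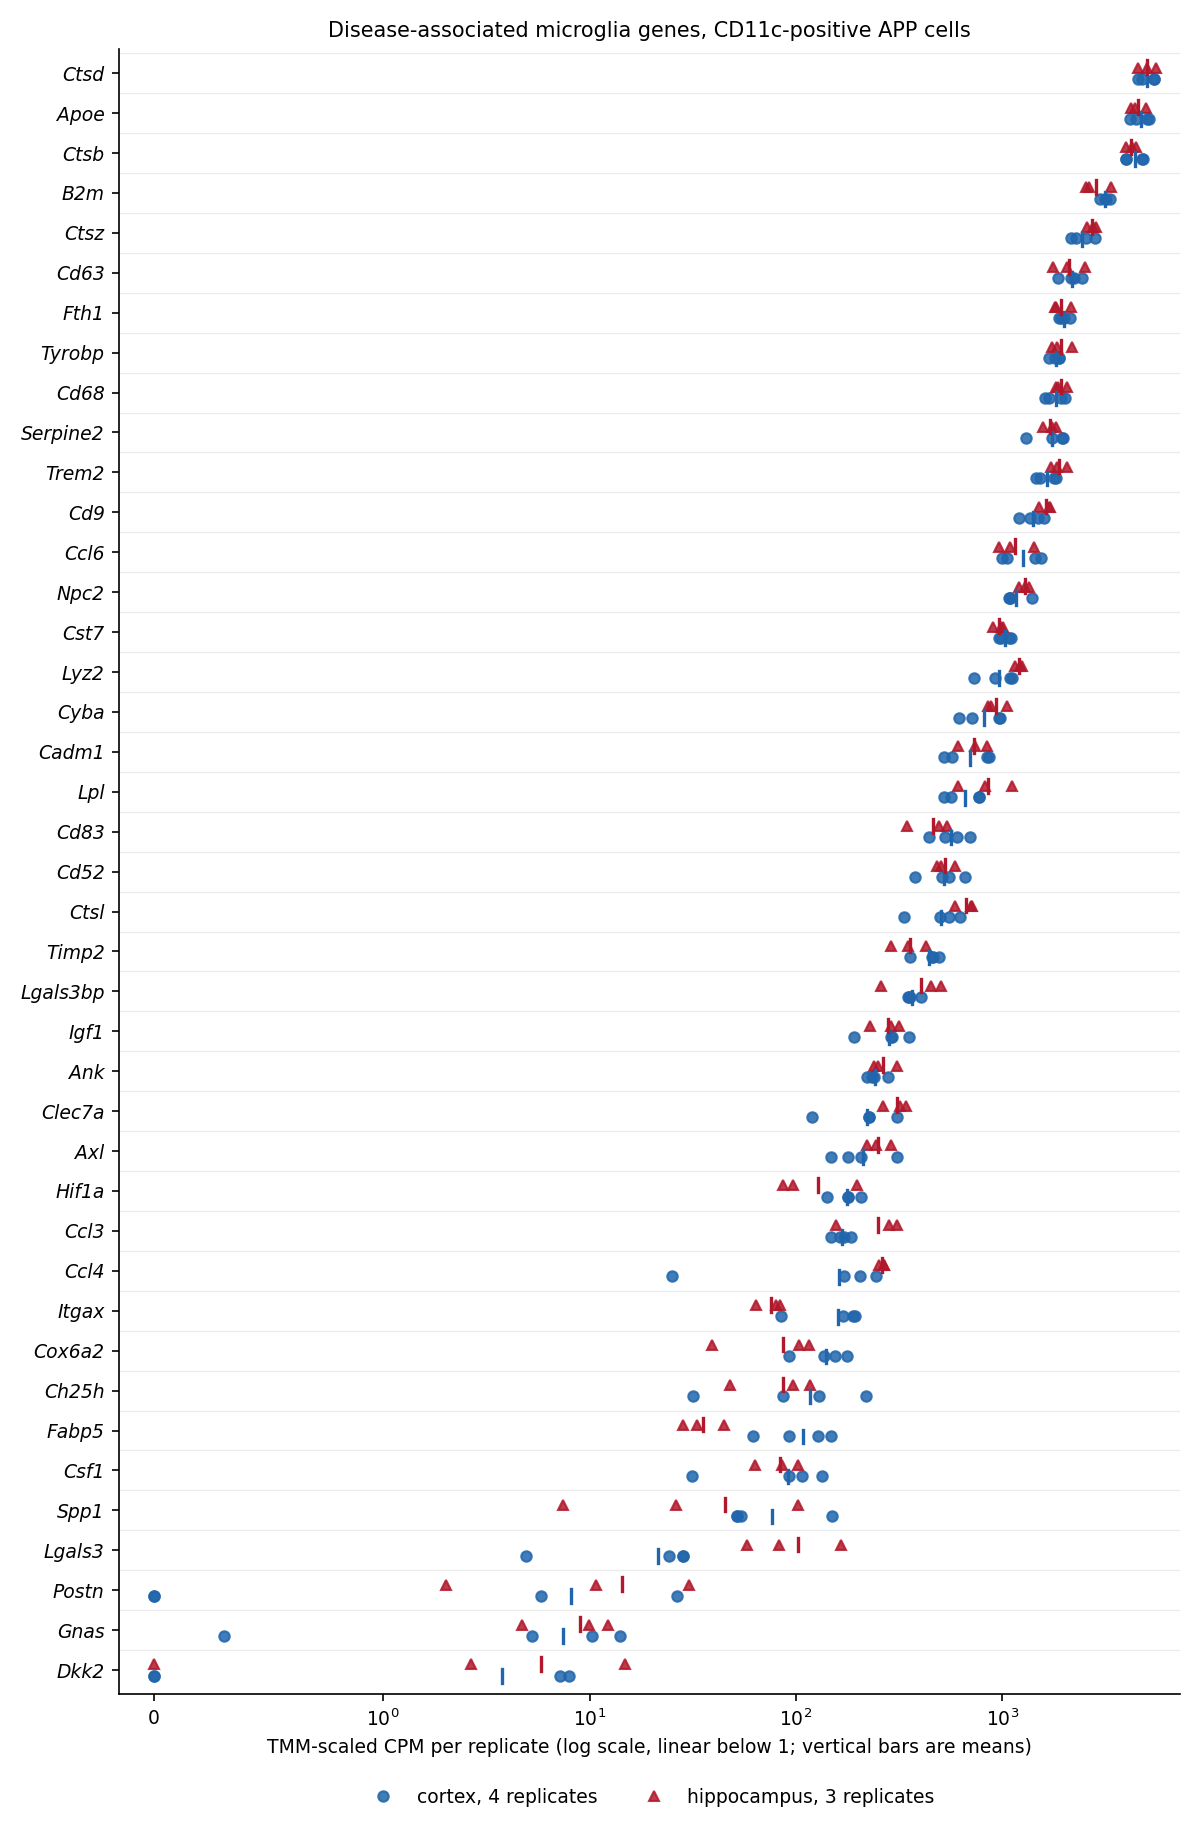
CPM (horizontal axis, log scale that is linear below 1) of the 41 tested genes of the DAM core and DAM broad lists, ordered by cortical mean; blue circles are the 4 cortical and red triangles the 3 hippocampal replicates, and bars are group means. Ctsd, Apoe and Cst7 overlap between the regions, while Itgax and Fabp5 lie lower and Lgals3 and Ccl4 higher in all 3 hippocampal replicates.

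Among cholesterol and lipid genes, Insig1 separated the regions. Insig1, the sterol sensor that holds back the SREBP transcription factors (chromosome 5, 28071363 to 28078662, plus strand), measured 1254, 1237, 1132 and 1493 CPM in cortex and 700, 851 and 619 CPM in hippocampus. All 5 hippocampal libraries lay below all 8 cortical ones (log2 -0.82 ± 0.31, adjusted p = 0.338 in edgeR, and 0.0326 in the fit of only the 2 groups). Its fold change was -0.81 without the cells rich in neural markers. Of 19 cholesterol synthesis genes 12 had a fold change below 0, against 8383 of 14892 genes tested, and 1, Insig1, reached an unadjusted p under 0.05, so that these counts were near those over all genes. Over the list the median was -0.39, and its summed level was 1147 to 1320 CPM in hippocampus and 1788 to 2152 in cortex. Insig1 is a member and held 735 CPM of that level in hippocampus and 1216 in cortex, with replicates pooled, so the sums largely repeat its values. Of 17 lipid handling genes 14 were below 0 (median -0.42), 0 reached an unadjusted p under 0.05, and the replicates did not overlap for Fabp5 and Cd36, a share near the 9.93% over all genes. Without the cells rich in neural markers the medians of the lists were -0.51 and -0.50.

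No gene of the immune response lists passed adjustment. The interferon list had a median of 0.80, with 16 of 23 genes above 0, and 0 genes at an unadjusted p under 0.05 in edgeR. Its median was 0.43 without the cells rich in neural markers. Its summed level was 897 to 1003 CPM in hippocampus and 473 to 862 in cortex. Irf7, which drives the interferon response, measured 0, 6.11, 0 and 0 CPM in cortex and 9.61, 39.3 and 26.4 CPM in hippocampus, with counts in 2 of 587 and 8 of 362 cells (adjusted p = 0.722). Ifitm3 and Stat2 were the other interferon genes whose replicates did not overlap. That made 3 of 23 with higher values in hippocampus, against 3.74% over all tested genes. The MHC class I list (14 genes) had a median of 0.33 and the MHC class II list (10 genes) one of 0.36, and both were near 0 without the cells rich in neural markers (0.04 and 0.01). The summed level of the class II list, which includes Ctss, was 5205 to 7040 CPM in hippocampus and 4003 to 4186 in cortex.

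Within MHC class II, Ctss, the cathepsin that trims the invariant chain, measured 3077, 3168, 3184 and 3136 CPM in cortex and 3932, 4851 and 4121 CPM in hippocampus (log2 0.45 ± 0.13, adjusted p = 0.209 in edgeR). All 5 hippocampal libraries were above all 8 cortical ones. H2-Eb1, an antigen-presenting chain, measured 25.7, 0, 20.6 and 16.9 CPM in cortex and 42.4, 26.3 and 246 CPM in hippocampus, so that 1 replicate, APP4, held most of it. H2-Ab1, the beta chain of the class II molecule I-A, was higher in every hippocampal replicate, at 203, 180 and 656 CPM against 141, 86.5, 179 and 177 CPM in cortex, and did not pass (adjusted p = 1). It was counted in 44.2% of hippocampal cells (32.4% to 72.9% by replicate) and 12.1% of cortical cells (9.79% to 14.3%), and in 25.8% and 9.63% with cells thinned to 5000 counts. APP4 also held the highest Cd74 (462 CPM, against 117 to 185 CPM in all others) and Cd209a (130 CPM, against 0 to 8.29 CPM). The list of 14 inflammatory cytokines and chemokines had 0 genes at an unadjusted p under 0.05 and a median of 0.17, with Ccl4 and Tgfb1 higher in every hippocampal replicate. NF-kB targets and regulators (13 genes) had a median of -0.10, with 0 genes at that p, and Bcl2a1b and Bcl2a1d, near-identical copies whose reads are hard to assign, were higher in all hippocampal replicates.

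Immediate early and heat shock genes, which mark stimulation during tissue handling as well as in life, had a median of -0.37 over 22 genes, with 3 lower (Fosb, Egr1 and Nr4a1) and 0 higher at an unadjusted p under 0.05 in edgeR. Over all tested genes 9.7% were lower and 1.55% higher at that p. Egr1 measured 14.2, 44.0, 22.3 and 37.3 CPM in cortex and 0 in all hippocampal replicates, at least 81.9-fold lower (adjusted p = 0.223). Of its cortical counts 82.3% lay in the cells rich in neural markers. The abundant members Junb, Jund, Btg2 and Klf6 overlapped between the regions.

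Lysosomal genes were close between the regions. Of 30 genes, 3, among them Ctss and Psap, were higher and 0 lower at an unadjusted p under 0.05 in edgeR. Over all tested genes 1.55% were higher and 9.7% lower. The median of the 30, 0.18, turned to -0.09 without the cells rich in neural markers and -0.03 with thinned cells. Psap, the precursor of the saposins, measured 613 to 760 CPM in cortex and 973 to 1129 CPM in hippocampus (log2 0.61 ± 0.18, adjusted p = 0.221 in edgeR). The vacuolar proton pump, which acidifies lysosomes, had 0 of 15 genes at that p (median 0.10, and -0.13 without the cells rich in neural markers). The proteasome list had 0 of 21 (median -0.02). In the unfolded protein response list Pdia3 and Hsp90b1, folding factors of the endoplasmic reticulum, had an unadjusted p under 0.05 out of 14 genes (median 0.33, and 0.08 without the cells rich in neural markers). Hsp90b1 measured 525 to 714 CPM in cortex and 876 to 973 CPM in hippocampus (0.54 ± 0.25, adjusted p = 0.431).

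Of 30 nuclear respiratory chain genes 25 had a fold change below 0 in hippocampus against cortex, 11 had hippocampal replicates below all cortical ones, and 1, Cox7b, had an unadjusted p under 0.05 in edgeR. Over all 14892 tested genes 8383 had a fold change below 0, and 9.93% had hippocampal replicates below all cortical ones. The median of the list was -0.43, and -0.24 without the cells rich in neural markers. The summed level was 6496 to 7167 CPM in hippocampus and 7976 to 9562 in cortex. Cox7b, a subunit of cytochrome c oxidase, measured 388, 252, 268 and 250 CPM in cortex and 123, 137 and 54.8 CPM in hippocampus (log2 -1.46 ± 0.63, adjusted p = 0.379). Cox6a1, another subunit, measured 314 to 407 CPM in cortex and 100 to 285 CPM in hippocampus (-0.84 ± 0.48, adjusted p = 0.577).

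The mitochondrial genome followed in part. Of its 13 messenger RNAs 12 had a fold change below 0 (median -0.55), and the median was -0.04 without the cells rich in neural markers. With all cells 10 of its 24 transfer and ribosomal RNAs were lower at an unadjusted p under 0.05 in edgeR, against 9.7% of all tested genes. The 24 had a median of -3.38, and -0.51 without the cells rich in neural markers. Their summed level overlapped between the regions, at 8133 to 11750 CPM in hippocampus and 7530 to 11476 in cortex. Of the 24, 3 had 0 counts in hippocampus. The mean mitochondrial share of counts per cell was 4.41% in the cortical cells rich in neural markers, 2.11% in other cortical cells and 2.16% in hippocampal cells. Glycolysis and hypoxia genes (19) had a median of -0.09, with Pfkp and Vegfa lower at that p, and iron and oxidative stress genes (19) a median of -0.11, with Nqo1 and Sod1 lower. Each is 2 of 19, near the 9.7% of all tested genes that were lower at that p. Slc40a1, the iron exporter ferroportin, measured 16.5 to 62.9 CPM in cortex and 45.0 to 137 CPM in hippocampus (log2 1.05 ± 0.48, adjusted p = 0.404 in edgeR).

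Among microglial transcription factors (17 genes, median 0.42, and 0.17 without the cells rich in neural markers) Cebpb had the only unadjusted p under 0.05. Cebpb, a driver of inflammatory genes in myeloid cells, measured 79.4, 87.1, 67.7 and 112 CPM in cortex and 34.3, 30.3 and 32.5 CPM in hippocampus (log2 -1.42 ± 0.53, adjusted p = 0.334 in edgeR). Its fold change was -1.50 without the cells rich in neural markers, and it was called in 1 of 21 alternatives. Irf8, which sets the identity of microglia, measured 506 to 596 CPM in cortex and 701 to 919 CPM in hippocampus (0.55 ± 0.32, adjusted p = 0.596).

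Of 23 mouse counterparts of genes at Alzheimer risk loci, Bin2 was higher and Clu lower at an unadjusted p under 0.05. Bin2, a membrane-bending protein of phagocytes, measured 117 to 157 CPM in cortex and 241 to 322 CPM in hippocampus (log2 0.96 ± 0.36, adjusted p = 0.338 in edgeR, and 0.0412 in the fit of only the 2 groups). Clu, the chaperone clusterin made mostly by astrocytes, measured 106, 130, 188 and 247 CPM in cortex and 5.68, 0 and 0 CPM in hippocampus (-6.32 ± 1.51, adjusted p = 0.0908). Of its cortical counts 89.9% were in the cells rich in neural markers, which were chosen in part by the counts of Clu itself. The list's median was 0.19 and turned to -0.06 without those cells.

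Several other lists had medians that changed sign or came near 0 without the cells rich in neural markers: complement (10 genes, 0.16 to -0.15), phagocytic and Fc receptors (19 genes, 0.19 to -0.03), cytoskeleton and motility (22 genes, 0.10 to 0.05) and cytosolic ribosomal proteins (86 genes, 0.09 to 0.01). C1qa, a chain of the complement initiator C1q, measured 993 to 1336 CPM in cortex and 1544 to 1971 CPM in hippocampus (log2 0.51 ± 0.26, adjusted p = 0.469 in edgeR). Fcer1g, the signalling chain of Fc receptors, measured 1165 to 1688 and 1842 to 2039 CPM (0.43 ± 0.21, adjusted p = 0.468). TGF-beta signalling (14 genes) had a median of -0.34, with Tgfbr1 higher and Itgav lower at an unadjusted p under 0.05. Growth and neurotrophic factors (12 genes) had a median of -0.47, with Vegfa, Bdnf and Hbegf lower at that p, against 9.7% of all tested genes. Without the cells rich in neural markers that median was -0.27, with 0 genes lower at that p. All 48 cortical counts of Bdnf lay in 6 of the cells rich in neural markers. The cell cycle (19 genes) had a median of -0.13, with 0 genes at that p. None of these lists held a gene that passed adjustment.

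**Figure D5:**
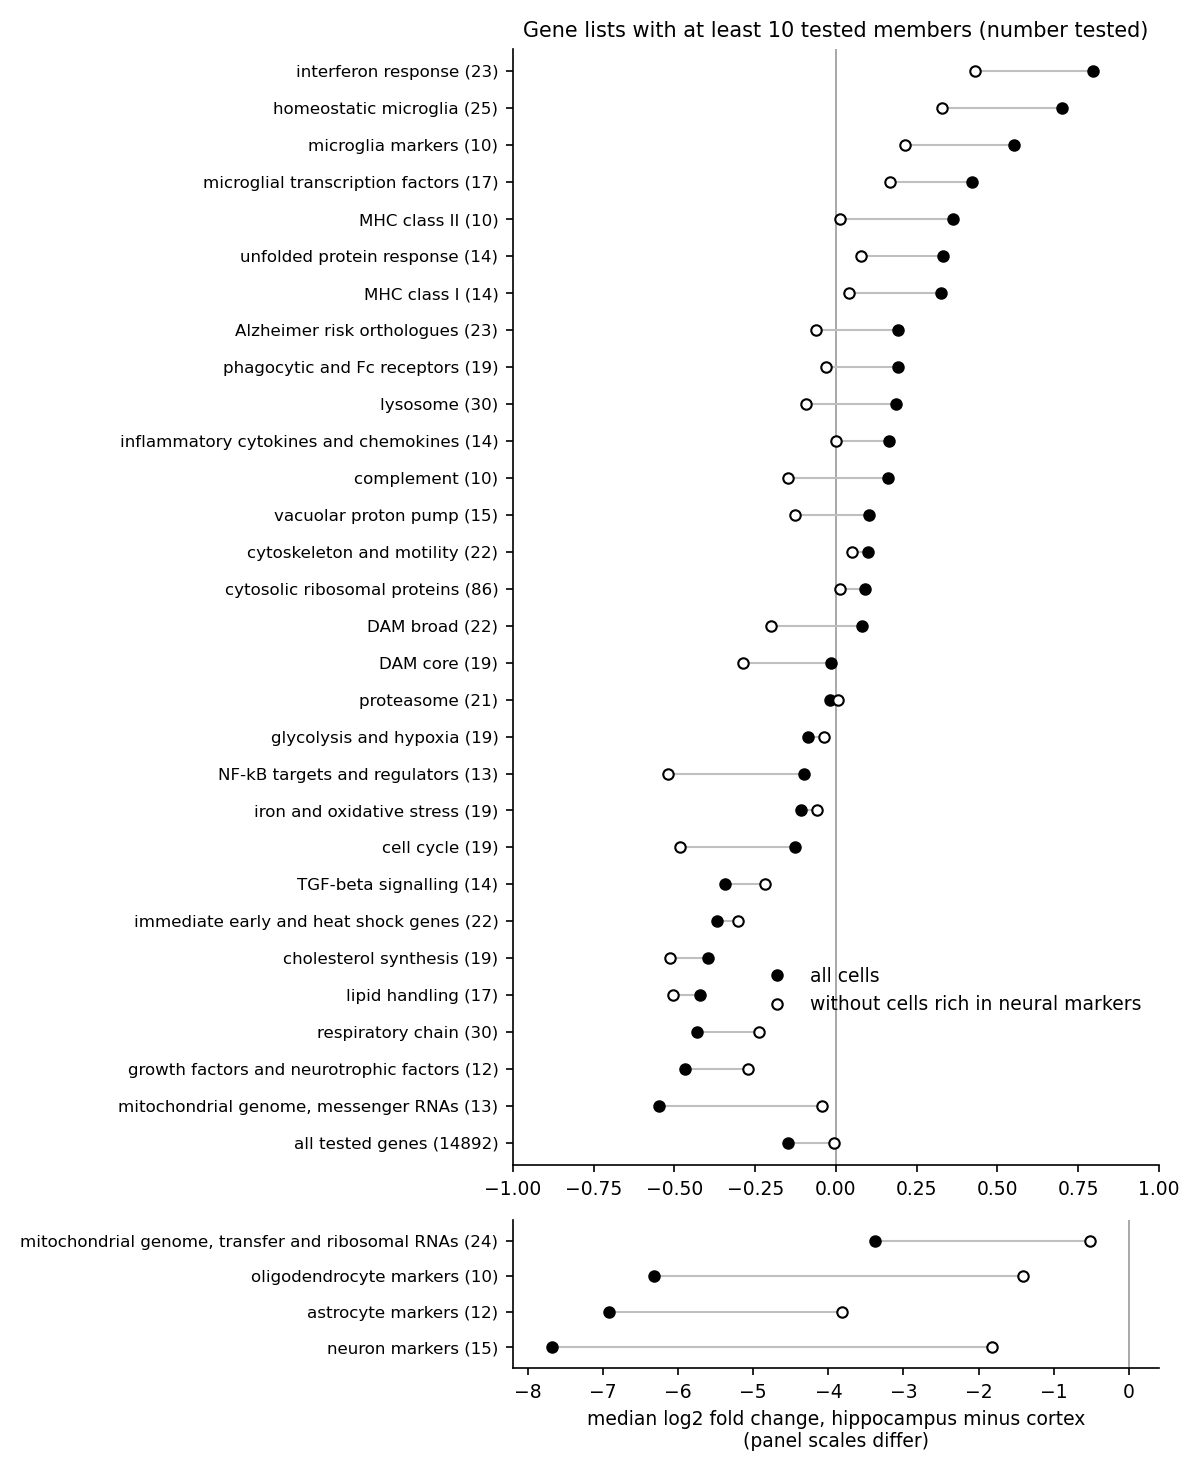
Median log2 fold change, hippocampus minus cortex (horizontal axis), of each gene list with at least 10 tested members, with all cells (filled) and without cells rich in neural markers (open); numbers in brackets are genes tested, and the lower panel has a wider scale. Homeostatic genes move from 0.70 to 0.33, while cholesterol synthesis moves from -0.39 to -0.51 and neuron markers from -7.68 to -1.83.

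Markers of other blood-derived and border cells were low in both regions. Ccr2, the chemokine receptor of circulating monocytes, measured 0.467, 0, 0.572 and 1.66 CPM in cortex and 29.3, 31.0 and 96.7 CPM in hippocampus, with counts in 4 of 587 and 14 of 362 cells (log2 6.18 ± 2.39, adjusted p = 0.338 in edgeR). The monocyte markers summed to 29.3 to 158 CPM in hippocampus and 1.34 to 50.5 in cortex, with 3 of 8 tested. Markers of border-associated macrophages summed to 75.5 to 132 and 13.2 to 51.5 CPM, with 4 of 10 tested, and dendritic cell markers to 17.5 to 154 and 1.47 to 32.7, with 4 of 8 tested. Border-associated macrophage sums did not overlap between the regions, and hippocampal APP4 was the highest replicate for all 3 lists. Lymphocyte markers summed to 13.3 to 63.6 and 9.64 to 33.8 CPM and endothelial and mural markers to 567 to 740 and 530 to 689. Of the endothelial and mural sum, Bsg held 632 CPM in hippocampus and 572 in cortex, with replicates pooled. It was counted in 61.6% and 53.3% of cells. Single endothelial and mural genes did not follow that sum. Of 9 tested, 6 had a fold change below 0 and 3 above, with 4 lower and 1 higher at an unadjusted p under 0.05 in edgeR. Over all tested genes 9.7% were lower and 1.55% higher at that p. Of the 12 listed, 8 lacked any count in hippocampus and 1 in cortex. Their median log2 fold change was -6.59 as fitted, -3.51 at the bounds, and -0.16 without the cells rich in neural markers. The replicates of the regions were apart for 0 of the 9. Red blood cell markers were at 0 in hippocampus and at 0 to 28.2 in cortex.

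App and Prnp stand for the gene and the promoter of the transgenes. App measured 86.6, 219, 161 and 170 CPM in cortex and 122, 40.0 and 99.4 CPM in hippocampus, and the replicates overlapped. Prnp, the prion protein gene, measured 190, 231, 336 and 358 CPM in cortex and 9.61, 14.99 and 5.41 CPM in hippocampus (log2 -4.78 ± 1.21, adjusted p = 0.109 in edgeR). Of its cortical counts 84.1% were in the cells rich in neural markers. Transgene transcripts were not counted apart from the mouse genes, and whether their reads entered the App values was not tested.

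CD11c-negative microglia of APP mice and CD11c-negative microglia of wild-type (WT) males, also aged 6 months, gave the same regional comparison in other libraries, in part from animals of the same names. There 341 genes (2.29%) and 243 genes (1.63%) were called between the regions in edgeR, 318 and 208 of them lower in hippocampus. Of the 33 genes called in CD11c-positive cells 30 were also called in CD11c-negative APP cells, which is 30 of 33 and 30 of 341, and 29 in WT cells, 29 of 33 and 29 of 243. Cells rich in neural markers made up 49 of 454 CD11c-negative APP cortical cells (10.8%) against 4 of 426 in hippocampus (0.939%), and 56 of 390 WT cortical cells (14.4%) against 10 of 438 (2.28%). Hippocampal libraries thus held a smaller share of such cells than cortical ones in each of the 3 comparisons, and these differences were not tested.

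Homeostatic genes also had higher hippocampal values in the other comparisons, with list medians of 0.58 in CD11c-negative APP cells and 0.42 in WT cells. Cx3cr1 rose by 0.74 in CD11c-negative APP cells (adjusted p = 0.0191 in edgeR), and its value was 0.27 in WT cells (adjusted p = 0.403). Csf1r gave 0.58 in CD11c-negative APP cells (adjusted p = 0.103) and rose by 0.82 in WT cells (adjusted p = 0.0214). Iqsec1 and Agap2 fell by 1.09 and 1.99 in CD11c-negative APP cells (adjusted p = 0.00346 and 0.00500), against values of -0.07 and -0.64 in WT cells that did not pass.

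The regional difference itself was set against that of CD11c-negative APP cells by an interaction test. In edgeR 0 of 14892 genes (0.0%) passed and 1116 had an unadjusted p below the threshold. The same test called 248 genes in DESeq2 and 18 in limma voom. The smallest p values belonged to Camk2n1, Adam10, Kmt2d, Gas7, Zfhx3 and Ptp4a2, with adjusted p of 0.315 to 0.372. Camk2n1 gave -4.57 in CD11c-positive and -0.38 in CD11c-negative cells, a difference of -4.19 ± 0.83. Zfhx3 gave 0.69 and -0.58, and Gas7, a regulator of the actin cytoskeleton, -0.75 and -7.77. Wnk1 gave 1.02 and -0.06 (difference 1.08 ± 0.37), Zfp652 1.06 and 0.11 (0.96 ± 0.36) and Insig1 -0.82 and -1.99 (1.17 ± 0.42), with adjusted p of 0.485 to 0.505. None of these differences passed adjustment.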

How the data were processed

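The deposited files held whole-number counts per gene and well, 1 table per library. The submitters' processing notes name UMI-tools 0.5.3, HISAT2 2.1.0, featureCounts 1.6.0 and the builds GRCm38 and mm10. The sources used here do not say whether molecular identifiers were merged or strand was used, so a count may be a read: 25.2% of nonzero entries were 1, and the 33.2% of entries of 20 or more held 84.1% of all counts. Intervals and floors of 3 counts cover counting error only. Gene names matched GENCODE vM21 for 26348 of 26348 IDs.

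Wells under 200 genes or over 20% mitochondrial counts were dropped, 1 of 950 here. Library totals in the 13 libraries were 956491 to 2293742 counts over 70 to 78 wells. No cell profile occurred in more than 1 library, and 46 of 83 well barcodes were used in all 13. Counts were summed by animal name. Nothing in the labels says how far replicates are independent, so p-values measure the spread between these sums. edgeR 4.0.16 (TMM scaling, filterByExpr, quasi-likelihood test, Benjamini-Hochberg adjustment, threshold 0.05) was fitted to 23 replicates in 6 groups with 17 residual degrees of freedom and a common coefficient of variation of 1.37. Errors after ± are standard errors for log2 fold changes and SD elsewhere. Alternatives used DESeq2 1.42.0, limma 3.58.1, other filters and scalings, genes per cell as a covariate, left-out replicates, cells thinned to 5000 counts, numbers of cells with a count, and the exclusion of cells rich in neural markers. A pair of combinations with the fit of only the 2 groups was added after seeing the data. Other software was R 4.3.3, Python 3.11.15, numpy 2.4.6, scipy 1.17.1 and pandas 2.3.3. The fit was tested on simulated data. Only APP4 is a name shared by both regions of the CD11c-positive cells, so the pairing could not be checked by correlation.

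Genes were named by rule: up to 12 per direction with the largest change among called, non-overlapping genes with a mean of at least 50 CPM, filled to 12 by the smallest p. The rule added Itgax, App and Prnp, up to 4 of the highest and 2 of the smallest p per list, the 15 most abundant genes, 6 for the interaction and 3 per marker list. A part of these is named in the text, and a few are not reported here. The cells, gene lists and tests were chosen with earlier results of these data known.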

Additional observations from a re-analysis of the deposited data

Results flagged for a closer look

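Among 61 gene values examined for a single distant sample in the 4 cortical replicates, 2 stood out by Dixon's criterion, which chance meets in about 1 in 20 groups. Cox7b, a subunit of cytochrome c oxidase, measured 388 CPM in cortical APP1, against 250 to 268 CPM in the other 3 cortical replicates. The gap to the nearest of them was 0.869 of the whole range, above the 95% critical value for 4 samples. Irf7, the interferon regulator, measured 6.11 CPM in cortical APP2 and 0 in the other 3, a gap of 1.0 of the range that rests on 2 cells. Both highest cortical values lay outside the hippocampal range, below it for Irf7 and above it for Cox7b.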

How the results depend on the processing

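The depth of the sums is a limit for rare transcripts, and a count of 0 in the 362 hippocampal cells allows up to 0.83% of cells with a count. Scaling by DESeq2's size factors within edgeR gave 39 calls, close to the 33. The 33 calls became 78 with no filter, 66 with a 50 CPM filter, 652 in DESeq2, 758 in limma voom and 452 with only the 2 groups. They became 5 with the named pools merged, 199 for numbers of cells with a count and 54 when genes per cell entered as a covariate. There were 0 calls with thinned cells (688 at an unadjusted p under 0.05 in edgeR), 0 without cells rich in neural markers (627) and 0 for the 2 groups without those cells (593), and 96 for the 2 groups with thinned cells. Genes called lower, 33, became 77, 59, 612, 718, 424, 5, 127 and 54 in the order of those settings with calls (no filter, 50 CPM filter, DESeq2, limma voom, 2 groups, merged pools, cells with a count, covariate), and 93 for the 2 groups with thinned cells. Genes called higher, 0, became 1 with other size factors, 1 with no filter, 7 with the 50 CPM filter, 40 in DESeq2, 40 in limma voom, 28 with only the 2 groups, 72 for cells with a count and 3 for the 2 groups with thinned cells. Leaving out 1 replicate gave 7 to 30 calls, 7 to 29 lower and 0 to 1 higher (Cx3cr1 without cortical APP2, Ecscr without cortical APP4). The calls were 8, 7 and 11 without hippocampal APP1-2, APP2-3 and APP4, and 21 and 20 without cortical APP3 and APP4.

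A replicate block by animal name, without the names that may be pools, left 1 hippocampal CD11c-positive replicate, assumed to vary like the others, and gave 0 calls (437 at an unadjusted p under 0.05 in edgeR). The interaction, 0, became 2 with no filter, 248 in DESeq2, 18 in limma voom and 1 with thinned cells, and 0 in every fit that left out a replicate. The 341 calls in CD11c-negative APP cells became 1160 in DESeq2, 562 in limma voom and 160 without cells rich in neural markers. The 243 in WT cells became 1601, 505 and 3 under these settings, 152 with the replicate block, 38 with thinned cells, 16 with the covariate, and 152 to 230 on leaving out a replicate. In limma voom 15 genes had a standard error under 0.05, 12 of them called and 8 of those with overlapping replicates.

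Over 54 genes and their alternatives 934 values kept direction and side of the threshold, 105 lost and 72 gained a call, and 12 turned sign. The Apoe log2 fold change turned to 0.011 with the 50 CPM filter, 0.0062 for cells with a count, 0.0429 without cortical APP1 and 0.0395 without hippocampal APP4, and ranged from -0.1779 to 0.0429 on leaving out a replicate. Cst7 turned to 0.22 for cells with a count and 0.0669 with that covariate. Lpl turned to -0.0703 with thinned cells and -0.0388 with the 2 groups and thinned cells. Trem2 turned to -0.11 with thinned cells, -0.15 without cells rich in neural markers, -0.15 without them in the 2 groups and -0.0899 with the 2 groups and thinned cells. The cause of these changes was not tested.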

Other observations

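Cytoskeletal genes were among those with higher values in hippocampal CD11c-positive cells, at an unadjusted p under 0.05 in edgeR for 2 of 22, Tmsb4x and Lcp1. Over all tested genes 1.55% were higher at that p. Tmsb4x, the actin-binding peptide thymosin beta 4, measured 2192 to 2292 CPM in cortex and 2763, 2952 and 3179 CPM in hippocampus. Lcp1, the leukocyte actin bundler plastin, measured 128 to 201 CPM in cortex and 273, 282 and 460 CPM in hippocampus. Malat1, a nuclear long noncoding RNA, measured 3681 to 4473 CPM in cortex and 5061, 5729 and 5298 CPM in hippocampus. Meg3, a long noncoding RNA of neurons, measured 372 to 485 CPM in cortex and 43.6 to 147 CPM in hippocampus. Slc1a2, the glutamate transporter of astrocytes, measured 322 to 890 CPM in cortex and 6.76 to 52.0 CPM in hippocampus. The replicates of the regions did not overlap for any of these 5 genes, which were chosen after their values were seen, and none passed adjustment.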
